A study of Mus musculus with 2 samples.

Results

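The genes described here are 40 receptor genes for cytokines, interleukins, TGF-beta family ligands and growth factors, chosen by name from 54531 genes measured in mouse haematopoietic stem cells (HSCs). All 40 were found in the deposited table, and 30 of them reached a mean level of 1 FPKM (fragments scaled to gene length and to the total of the library) over both libraries. HSCs of bone marrow were lysed and their total RNA was sequenced. The deletion HSCs came from mice labelled Cdh5-Cre;Angptl2fl/fl and described as lacking Angptl2, a secreted angiopoietin-like protein, in endothelial cells. In them the promoter of the endothelial gene Cdh5 drives a Cre recombinase that acts on floxed Angptl2 alleles. The control HSCs came from mice labelled Angptl2fl/fl, which share the floxed alleles and, by that label, carry no Cre. The description and column name of the control sample read Cdh5 and Cre instead, so the labels do not settle whether the control mice carried Cre. The sources used here do not give the age, sex or number of the mice or how the cells were isolated. Cdh5 is also active in the embryonic endothelium from which HSCs arise, so loss of Angptl2 in endothelium and in the HSCs themselves cannot be told apart.

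Each genotype has 1 library, so the differences below have no replicate check and carry no p-value, and they describe these libraries alone. In bulk RNA, fewer cells of a type and less RNA per cell cannot be told apart. The depth was 16843100 fragments for deletion HSCs and 17378600 for control HSCs. Angptl2 was at 0.179 FPKM (19 fragments) in deletion HSCs and 0.265 FPKM (29 fragments) in control HSCs, too low to check the genotype labels. Cdh5 was listed at 0 in deletion HSCs and at 0.0274 FPKM in control HSCs. The HSC label was met only in part. Kit, a marker of stem and progenitor cells, was at 48.8 FPKM in deletion HSCs and 54.3 FPKM in control HSCs, while Ly6a, which encodes the stem cell antigen Sca-1, was at 2.86 against 4.49 FPKM. Slamf1 (CD150), present on HSCs, was at 0.550 FPKM in deletion HSCs and 0.402 FPKM in control HSCs, and Cd48, absent from the surface of HSCs, was at 16.3 against 8.23 FPKM. Genes of committed cells stood far above these, such as the granule protease gene Elane at 1084 FPKM in deletion HSCs and 423 FPKM in control HSCs, and the erythroid carbonic anhydrase gene Car1 at 1629 against 1315 FPKM. Ly6a, Slamf1 and Cd48 were named after their values were seen, and the cells are called HSCs after their label.

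Most cytokine receptors are built from a chain that binds 1 ligand and a signalling chain shared by several ligands, and the shared chain couples to JAK kinases and STAT transcription factors. The shared chains are the common beta chain (Csf2rb) for GM-CSF, IL-3 and IL-5, gp130 (Il6st) for the IL-6 group, and the common gamma chain (Il2rg) for the IL-2 group. Receptors of the IL-1 family signal through adaptors to NF-kB, and TGF-beta and BMP receptors are serine/threonine kinases that phosphorylate SMAD proteins. In marrow these receptors carry the signals that keep stem cells dormant, call them into emergency myelopoiesis, or drive the production of single lineages.

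As a view of the start regions of genes described below, 3 promoters of receptors that were lower in deletion HSCs (Il1r2, Cxcr2 and Csf2rb2) and that of Csf3r, a neutrophil receptor gene that differed less, are given 5′ to 3′ on the gene's strand, with 250 bases before and 50 after the RefSeq start on GRCm38.p6. Capitals mark GAGGAA or its reverse complement TTCCTC, the core letters bound by the myeloid factor PU.1. The windows are chr1:40085843-40086142 (plus strand) for Il1r2, chr1:74153744-74154043 (plus strand) for Cxcr2, chr15:78305672-78305971 (minus strand) for Csf2rb2 and chr4:126024409-126024708 (plus strand) for Csf3r.
Il1r2: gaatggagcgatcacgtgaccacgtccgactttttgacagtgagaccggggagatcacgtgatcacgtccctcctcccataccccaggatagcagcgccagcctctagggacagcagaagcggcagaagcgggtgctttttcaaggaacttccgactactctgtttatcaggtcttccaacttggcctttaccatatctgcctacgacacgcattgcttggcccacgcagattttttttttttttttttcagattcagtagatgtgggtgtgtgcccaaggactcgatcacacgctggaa
Cxcr2: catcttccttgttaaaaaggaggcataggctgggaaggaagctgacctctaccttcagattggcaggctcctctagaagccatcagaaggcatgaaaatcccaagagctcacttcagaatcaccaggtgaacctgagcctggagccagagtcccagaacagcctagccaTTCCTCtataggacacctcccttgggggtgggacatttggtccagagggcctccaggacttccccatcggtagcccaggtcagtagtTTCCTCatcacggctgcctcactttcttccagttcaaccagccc
Csf2rb2: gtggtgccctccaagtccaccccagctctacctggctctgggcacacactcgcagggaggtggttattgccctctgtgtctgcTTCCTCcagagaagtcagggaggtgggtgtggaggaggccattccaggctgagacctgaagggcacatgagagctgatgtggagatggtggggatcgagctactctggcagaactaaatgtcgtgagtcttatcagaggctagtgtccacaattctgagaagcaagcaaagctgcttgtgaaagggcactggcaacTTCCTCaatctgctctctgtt
Csf3r: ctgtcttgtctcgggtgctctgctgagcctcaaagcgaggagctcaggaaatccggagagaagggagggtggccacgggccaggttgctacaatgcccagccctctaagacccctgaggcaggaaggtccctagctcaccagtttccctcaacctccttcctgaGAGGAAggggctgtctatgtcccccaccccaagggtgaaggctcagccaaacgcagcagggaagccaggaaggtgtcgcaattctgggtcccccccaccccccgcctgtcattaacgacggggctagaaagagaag

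The Cxcr2 window held GAGGAA at 2 places, the Csf2rb2 window at 2 and the Csf3r window at 1, while the Il1r2 window held none. The RefSeq start of Il1r2 used here lies inside the GENCODE gene model, which begins at 40074079. RefSeq promoters were found for 29 of the 40 receptor genes, 7 of them with more than 1 start, which gave 37 windows of 300 bases. GAGGAA on either strand was in 14 of these 37 windows (37.8%), against 28.3% of all 32851 promoter windows. The C/EBP letters TTGCNNAA were in 5 receptor windows (13.5%, against 10.8% of all), the RUNX letters TGTGGT in 6 (16.2%, against 16.8%), the STAT letters TTCNNNGAA in 4 (10.8%, against 8.30%) and the SMAD letters CAGACA in 6 (16.2%, against 21.0%), on both strands. The 4 windows shown held no C/EBP or RUNX letters, and their capitals overlap none of the STAT or SMAD letters. A match of letters is a description and not a binding site.

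The receptors spanned a wide range of levels, and the 4 most abundant stood in the same order in both libraries. Eng (endoglin, a TGF-beta co-receptor that marks mouse HSCs) was the most abundant, at 59.6 FPKM in deletion HSCs and 66.4 FPKM in control HSCs. Csf2ra, the GM-CSF binding chain, followed at 49.7 against 49.9 FPKM. Csf3r, the G-CSF receptor, came next at 25.01 FPKM in deletion HSCs against 30.4 FPKM in control HSCs, and then Il17ra, the shared chain for IL-17 cytokines, at 17.2 against 21.5 FPKM. At the other end, 10 receptors had a mean under 1 FPKM and were left out of the counts that follow. They were Osmr, Il5ra, Lifr, Bmpr1a, Il13ra1, Il7r, Il18r1, Il12rb1, Il6st and Il1rap.

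**Figure D1:**
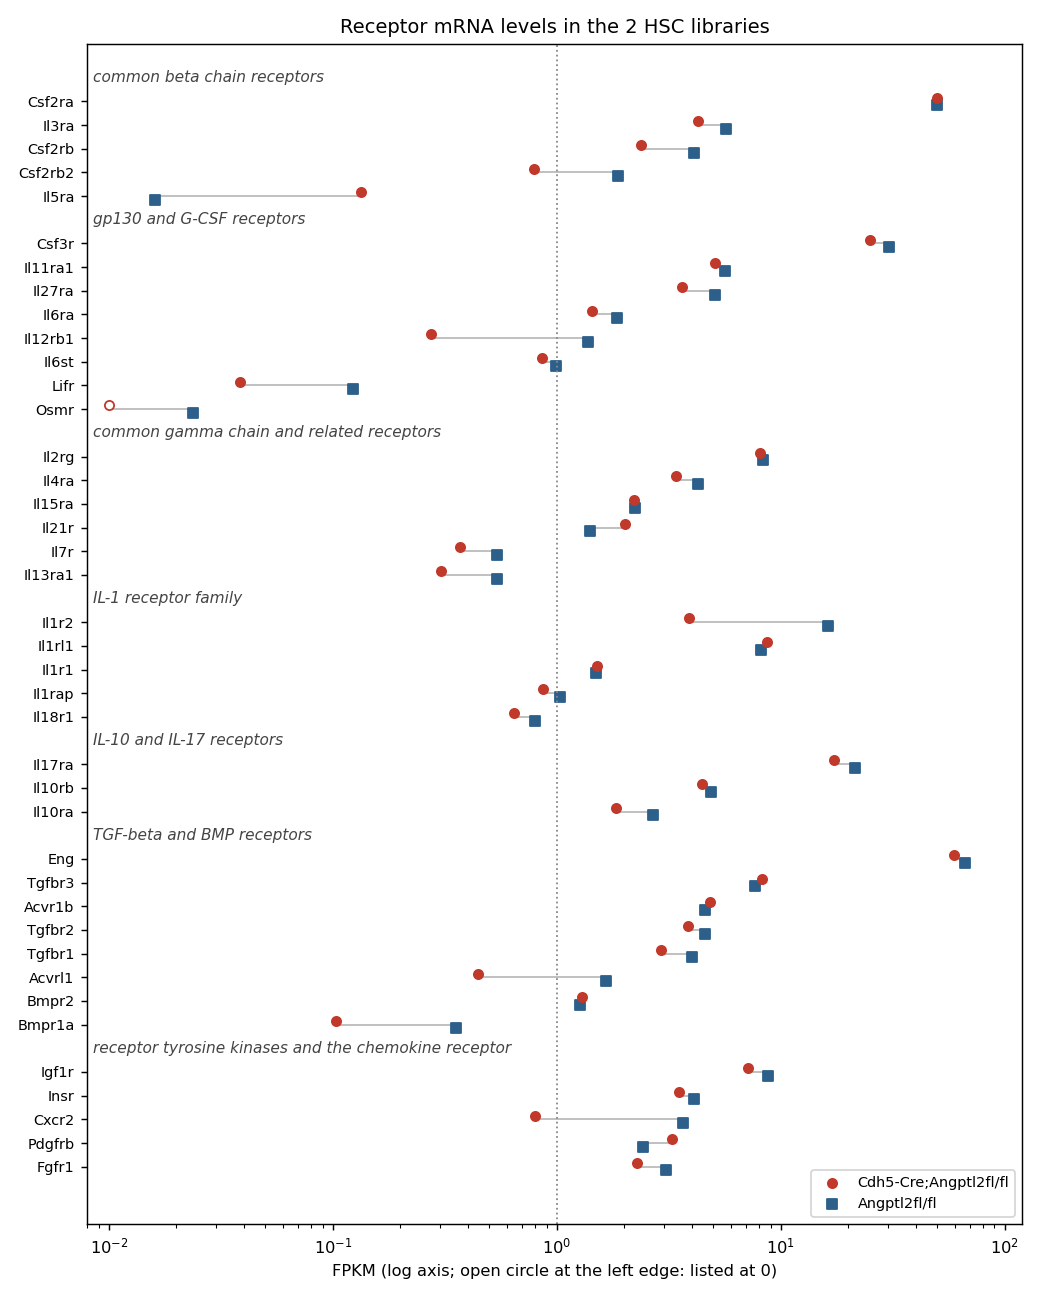
FPKM (log axis) of the 40 receptor genes by family in the Cdh5-Cre;Angptl2fl/fl library (red circles) and the Angptl2fl/fl library (blue squares), 1 library each, with the dotted line at 1 FPKM. The wide gaps above 1 FPKM in control HSCs are those of Il1r2, Cxcr2, Acvrl1, Csf2rb2 and Il12rb1, all lower in deletion HSCs.

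Ratios below are deletion over control. Counts use log2((FPKM + 1)/(FPKM + 1)), which understates differences of low genes, while plain ratios carry an exact 95% Clopper-Pearson counting interval from the fragments of both libraries. That interval treats each fragment as a separate molecule, and it covers counting error only and not the spread between mice. Of the 30 receptors that reached a mean of 1 FPKM, 2 (6.67%) were at least 2-fold lower in deletion HSCs, while 3.38% of all 12325 genes at that level and 0.752% of the 10237 protein-coding ones passed this limit. Both were receptors of neutrophils, Il1r2 and Cxcr2. None of the 30 was at least 2-fold higher, against 2.47% of all genes and 0.488% of protein-coding genes. A log2 ratio below 0 was found for 23 of the 30 (76.7%), against 51.6% of all genes and 52.1% of protein-coding genes, and 7 were above 0. The median log2 ratio of the 30 was -0.22, beside -0.011 over all genes and -0.014 over protein-coding genes. Low genes lay below 0 somewhat more often, with 57.2% of protein-coding genes at a mean of 1 to 2 FPKM, 56.8% at 2 to 5, 54.3% at 5 to 20 and 43% at 20 or more. Likewise 1.45%, 1.42%, 0.466% and 0.403% of protein-coding genes in these 4 ranges were at least 2-fold lower.

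**Figure D2:**
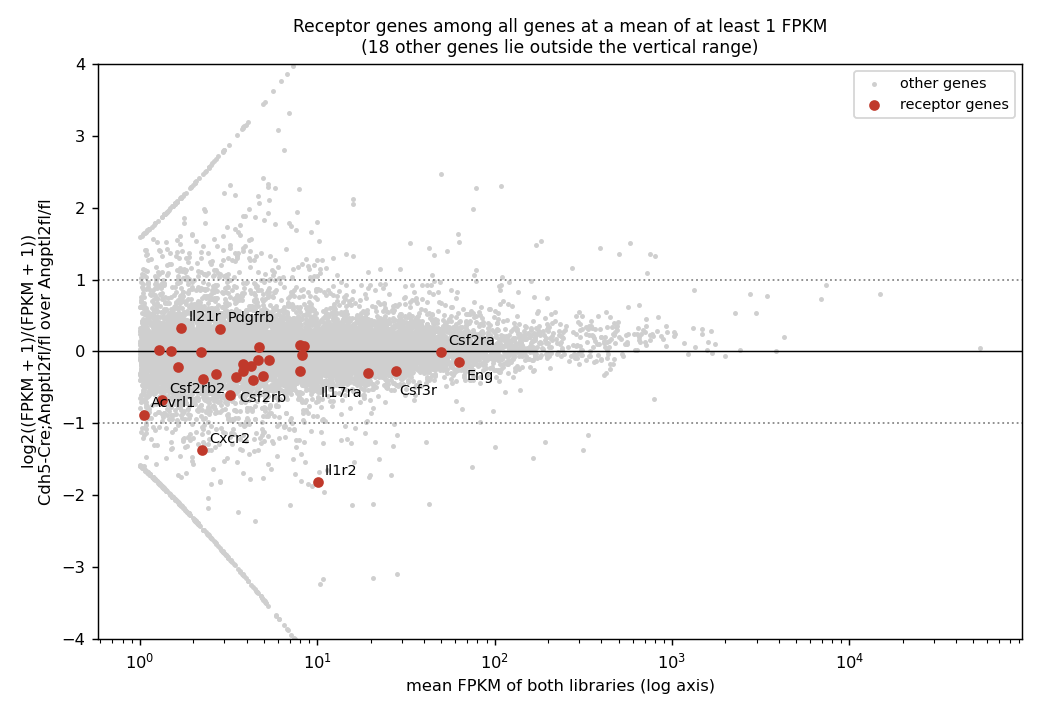
log2((FPKM + 1)/(FPKM + 1)), Cdh5-Cre;Angptl2fl/fl over Angptl2fl/fl, against the mean FPKM (log axis) for all 12325 genes that reached a mean of 1 FPKM, with the 30 receptors in red and dotted lines at 2-fold. Il1r2 and Cxcr2 lie below the lower dotted line, no receptor lies above the upper one, and 18 other genes are outside the vertical range.

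Counting intervals could be had for 29 of the 30, since the values of Csf2ra did not fall on whole fragments. The interval lay wholly below equality for 18 of the 29 (62.1%), against 31.6% of 9600 protein-coding genes, and wholly above it for 2 (6.90%), against 27.1%. The other 9 included equality. A plain ratio of 1.5-fold or more with an interval off equality was reached by 5 receptors on the lower side (17.2%, against 5.46% of protein-coding genes) and by none on the higher side (4.28% of protein-coding genes). These 5 were Il1r2, Cxcr2, Acvrl1, Csf2rb2 and Csf2rb, and the 2 wholly above equality were Il21r and Pdgfrb. The interval counts use the deposited scaling alone, and another scaling would shift every interval by the same amount.

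**Figure D3:**
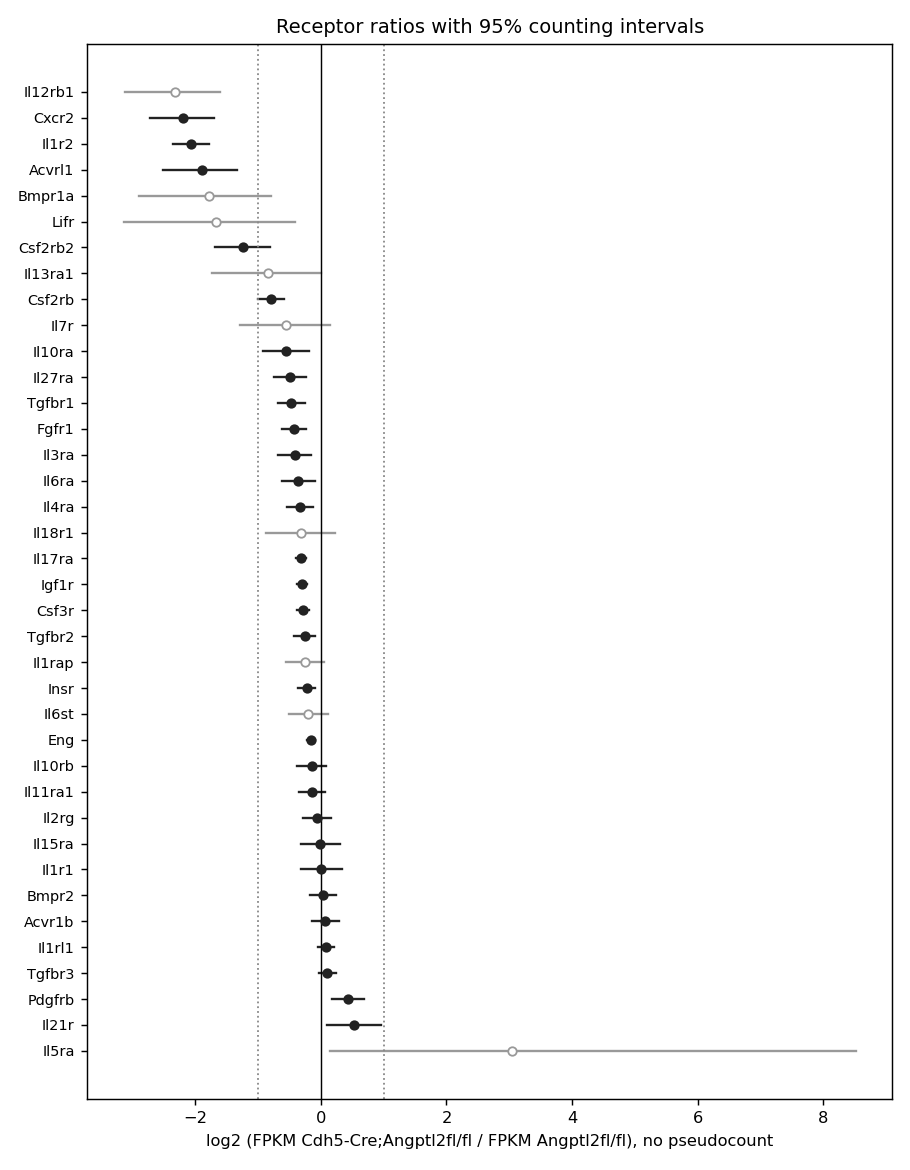
Plain log2 ratios of FPKM, Cdh5-Cre;Angptl2fl/fl over Angptl2fl/fl, with 95% counting intervals (lines) for 38 receptors, filled where the mean was at least 1 FPKM and open below it, with dotted lines at 2-fold. Most points lie left of 0, and Il12rb1, Cxcr2, Il1r2 and Acvrl1 have intervals wholly below the 2-fold line. Csf2ra has no interval and Osmr no finite ratio.

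Il1r2 and Cxcr2 were the only counted receptors past 2-fold on the log2(FPKM + 1) scale, while the plain ratios of Acvrl1 and Il12rb1, given below, were of similar size. Il1r2 encodes the decoy receptor that binds IL-1 without signalling and is made in quantity by neutrophils. It was at 3.89 FPKM (125 fragments) in deletion HSCs and 16.3 FPKM (539 fragments) in control HSCs, 4.18-fold lower, with a plain log2 ratio of -2.06 (interval -2.36 to -1.78). Cxcr2, the receptor for the chemokines that draw neutrophils out of the marrow, was at 0.799 FPKM (41 fragments) in deletion HSCs and 3.66 FPKM (194 fragments) in control HSCs. That is 4.59-fold lower, with a plain log2 ratio of -2.20 (interval -2.72 to -1.71). Csf3r, which is expressed from myeloid progenitors onward to mature neutrophils, differed by much less. Its plain log2 ratio was -0.28 (interval -0.38 to -0.19), from 1520 fragments in deletion HSCs and 1909 in control HSCs.

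Mature neutrophil markers were mostly lower in deletion HSCs. Of 14 mature neutrophil markers, 10 were at least 2-fold lower and 13 had a ratio below 0, with a median log2 ratio of -1.25. Cebpe alone was above 0, at 18.7 FPKM in deletion HSCs against 14.9 FPKM in control HSCs (interval 0.11 to 0.54). Wfdc21 was close in both, at 44.3 against 45.9 FPKM. Their summed level was 1525 FPKM in deletion HSCs and 2651 FPKM in control HSCs, and none was listed at 0. Cd177, a neutrophil surface glycoprotein, had the lowest ratio of them on the log2(FPKM + 1) scale. It was at 8.47 FPKM in deletion HSCs against 30.9 FPKM in control HSCs. S100a9, the most abundant, was at 615 against 970 FPKM. The other 9 past 2-fold were Ltf, Camp, Ngp, Lcn2, Mmp8, Mmp9, Retnlg, Ly6g and Stfa2l1. Stfa2l1 had only 3 fragments in deletion HSCs and 19 in control HSCs. Granulocyte and monocyte progenitor markers went the other way. Among 7 of them, 6 (Mpo, Elane, Prtn3, Ctsg, Ms4a3 and Gfi1) were at least 2-fold higher, and the sum was 2709 FPKM in deletion HSCs against 1036 FPKM in control HSCs. The part of cell composition in the Il1r2 and Cxcr2 values was not tested.

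The other 4 IL-1 family receptors among the 40 had counting intervals that included equality. Il1r2 (chromosome 1, 40074079 to 40125231, plus strand, GRCm38), Il1r1, Il1rl1 and Il18r1 lie in a row on the same strand. Il1r1, the signalling IL-1 receptor, begins 99.8 kb beyond the end of Il1r2 and was at 1.51 FPKM in deletion HSCs against 1.501 FPKM in control HSCs (plain log2 ratio 0.010, interval -0.31 to 0.33). Il1rl1, the IL-33 receptor ST2, lies 112 kb further on and was at 8.65 against 8.18 FPKM (interval -0.048 to 0.21). Il18r1, the IL-18 binding chain, begins 136 bases after Il1rl1 and was at 0.641 FPKM in deletion HSCs against 0.800 FPKM in control HSCs. The level of the decoy Il1r2 relative to Il1r1 was 2.57 in deletion HSCs and 10.8 in control HSCs, as a ratio of FPKM. Il1rap, the accessory chain that IL-1 and IL-33 receptors need for signalling, was at 0.868 against 1.03 FPKM, with an interval that included equality.

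Among the receptors of the common beta chain group, the signalling chains were lower in deletion HSCs while the GM-CSF binding chain was close in both libraries. Csf2rb (chromosome 15, 78325752 to 78353847, plus strand) was at 2.37 FPKM (291 fragments) in deletion HSCs and 4.11 FPKM (520 fragments) in control HSCs, 1.73-fold lower with a plain log2 ratio of -0.79 (interval -1.004 to -0.58). Csf2rb2, a second beta chain of the mouse that serves IL-3, lies 20030 bases away on the other strand and was at 0.789 FPKM (63 fragments) in deletion HSCs and 1.87 FPKM (154 fragments) in control HSCs, 2.37-fold lower (interval -1.69 to -0.81). The pair share sequence, since 7.15% of the 75-base windows of Csf2rb transcripts and 10.6% of those of Csf2rb2 occur in the other, so part of their fragments may have been assigned to either. Il3ra, the IL-3 binding chain, was at 4.26 FPKM in deletion HSCs against 5.68 FPKM in control HSCs (plain log2 ratio -0.42, interval -0.68 to -0.16). Csf2ra had a log2 ratio of -0.0078, which was above 0 when ratios were centred on the median of all genes or scaled without mitochondrial genes. Csf2ra was 20.9 times the level of Csf2rb in deletion HSCs and 12.1 times in control HSCs, in FPKM. Il5ra, the IL-5 binding chain of eosinophils and B-1 cells, was near the limit of detection, with 8 fragments in deletion HSCs and 1 in control HSCs (8.25-fold, interval 0.15 to 8.52 on the log2 scale).

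Genes of eosinophils, basophils and mast cells differed in both directions. Prg2, the eosinophil major basic protein, was at 2.13 FPKM in deletion HSCs against 49.9 FPKM in control HSCs, and Epx, the eosinophil peroxidase, was at 0.781 against 8.14 FPKM. In the list of eosinophil, basophil and mast cell markers, 3 of 9 measured genes were at least 2-fold lower and none higher. These counts use the log2(FPKM + 1) scale, on which 7 were below 0, with a median of -0.65. Siglecf, an eosinophil surface receptor gene, was at 3.81 FPKM in deletion HSCs against 2.87 FPKM in control HSCs, and Cpa3, a mast cell protease gene, was at 3.68 against 1.78 FPKM. Both were named after their values were seen. The sum of the list was 108 FPKM in deletion HSCs and 183 FPKM in control HSCs. The other gene past 2-fold was Prss34, a basophil protease, at 3.95 against 12.3 FPKM. Gata1, a transcription factor of several of these lineages and the most abundant of the list, was at 86.9 against 92.9 FPKM. Ear6 was listed at 0 in deletion HSCs and was at 1.89 FPKM (31 fragments) in control HSCs, with a mean under 1 FPKM.

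In the gp130 group, 3 binding chains were above the shared chain in FPKM. Il6st was at 0.861 FPKM (161 fragments) in deletion HSCs and 0.9902 FPKM (191 fragments) in control HSCs, with an interval of -0.51 to 0.11. Il27ra, the IL-27 receptor, was at 3.64 against 5.10 FPKM (plain log2 ratio -0.49, interval -0.75 to -0.23), and Il6ra, the IL-6 binding chain, at 1.44 against 1.85 FPKM (interval -0.62 to -0.096). Il11ra1, the IL-11 binding chain, was at 5.10 FPKM in deletion HSCs against 5.61 FPKM in control HSCs, but 35.9% of its 75-base windows occur in other annotated genes, among them Il11ra2, so its level is uncertain. Lifr and Osmr, the receptors for LIF and oncostatin M, were hardly detected. Lifr had 7 fragments in deletion HSCs and 23 in control HSCs (3.18-fold lower, interval -3.14 to -0.40), and Osmr had 0 and 5.

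Il12rb1, the chain shared by the IL-12 and IL-23 receptors, had the lowest plain ratio of the receptors detected in both libraries. It was at 0.275 FPKM (19 fragments) in deletion HSCs and 1.37 FPKM (98 fragments) in control HSCs, 4.999-fold lower with a plain log2 ratio of -2.32 (interval -3.11 to -1.60). Its mean was under 1 FPKM, so it was not counted, and on the log2(FPKM + 1) scale the ratio was -0.90. Its partner for IL-12, Il12rb2, was at 0.814 FPKM in deletion HSCs against 0.607 FPKM in control HSCs, and its partner for IL-23, Il23r, was listed at 0 in both.

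The 4 counted receptors of the common gamma chain group all differed by less than 1.5-fold. Il2rg was at 8.06 FPKM in deletion HSCs against 8.36 FPKM in control HSCs (interval -0.28 to 0.17), though 25.98% of its 75-base windows also belong to an overlapping predicted gene. Il15ra, the IL-15 binding chain, was at 2.22 against 2.23 FPKM. Il4ra, the IL-4 and IL-13 receptor chain, was at 3.39 against 4.29 FPKM (plain log2 ratio -0.34, interval -0.54 to -0.13). Of the 75-base windows of Il4ra, 7.95% occur in another annotated gene. Il21r begins 23954 bases beyond Il4ra on the same strand of chromosome 7 and stood on the other side of equality, at 2.02 FPKM (113 fragments) in deletion HSCs against 1.40 FPKM (81 fragments) in control HSCs (plain log2 ratio 0.53, interval 0.10 to 0.96). Il7r, the IL-7 receptor of lymphoid progenitors, was at 0.369 against 0.543 FPKM, and Il13ra1, the partner of Il4ra outside the gamma chain complex, at 0.304 against 0.543 FPKM. The intervals of both included equality.

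Receptors for IL-10 and IL-17 were all below 0. Il10ra, the IL-10 binding chain, was at 1.83 FPKM (108 fragments) in deletion HSCs and 2.68 FPKM (163 fragments) in control HSCs (plain log2 ratio -0.55, interval -0.91 to -0.19). Its partner Il10rb was at 4.43 against 4.90 FPKM with an interval that included equality, though 12.9% of its 75-base windows occur in another annotated gene. Il17ra, with 2512 fragments in deletion HSCs and 3231 in control HSCs, had a plain log2 ratio of -0.32 (interval -0.39 to -0.24).

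**Figure D4:**
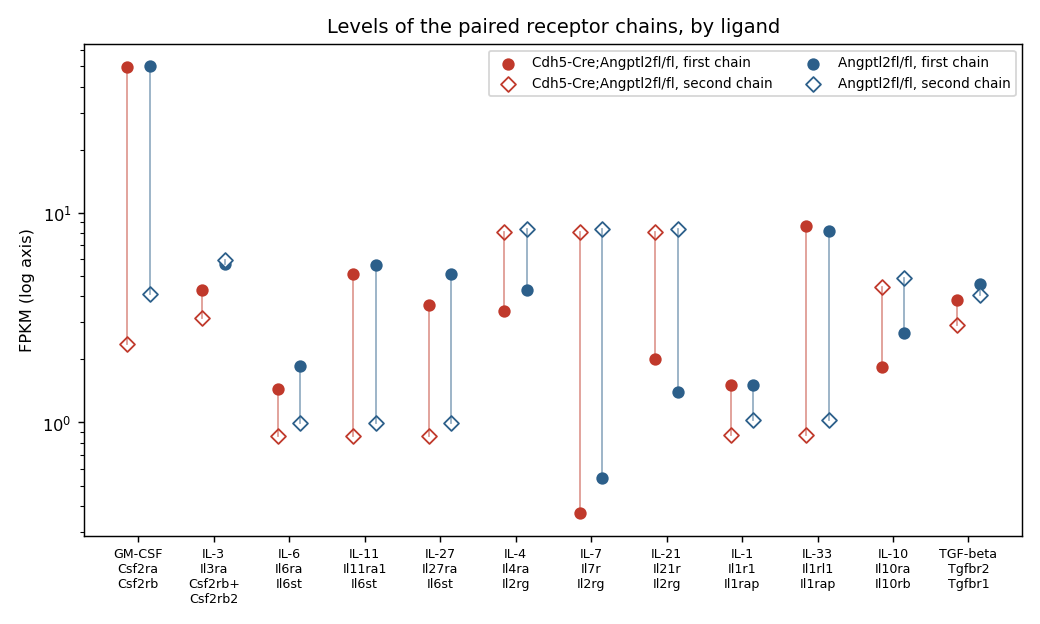
FPKM (log axis) of paired receptor chains by ligand, with the first named chain as a filled circle and the second as an open diamond, red for the Cdh5-Cre;Angptl2fl/fl library and blue for the Angptl2fl/fl library (1 library each). The chain that was the higher of a pair was the same in both libraries except for IL-3, where Il3ra was 1.35 times the sum of Csf2rb and Csf2rb2 in deletion HSCs and 0.95 times in control HSCs.

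Among receptors for TGF-beta and related ligands, Acvrl1 was lower in deletion HSCs while its chromosomal neighbour Acvr1b was not. Acvrl1 encodes ALK1, a type I receptor for BMP9 and BMP10 known from endothelium. It was at 0.445 FPKM (32 fragments) in deletion HSCs and 1.66 FPKM (123 fragments) in control HSCs, 3.73-fold lower with a plain log2 ratio of -1.90 (interval -2.51 to -1.33), although its ratio on the log2(FPKM + 1) scale was -0.88. Acvr1b, the activin type I receptor ALK4, lies 28.7 kb beyond it on chromosome 15 and was at 4.81 FPKM in deletion HSCs against 4.57 FPKM in control HSCs (interval -0.14 to 0.29). Tgfbr1, the type I TGF-beta receptor, was at 2.92 against 4.03 FPKM (plain log2 ratio -0.47, interval -0.68 to -0.26). The type II receptor Tgfbr2 was at 3.84 against 4.60 FPKM (plain log2 ratio -0.26, interval -0.43 to -0.091). Of the co-receptors, Eng had a plain log2 ratio of -0.16 (interval -0.22 to -0.095), and Tgfbr3 (betaglycan) was at 8.27 against 7.70 FPKM with an interval that included equality. Bmpr2, the type II BMP receptor, was at 1.301 against 1.27 FPKM. Its type I partner Bmpr1a was at 0.103 FPKM (11 fragments) in deletion HSCs and 0.353 FPKM (39 fragments) in control HSCs (plain log2 ratio -1.78, interval -2.90 to -0.79).

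Acvrl1 is known from endothelium, and most endothelial markers that reached a mean of 1 FPKM were near equality. None of these 6 passed 2-fold, and their median log2 ratio was -0.066. The whole list summed to 39.96 FPKM in deletion HSCs and 40.9 FPKM in control HSCs. Robo4 had the lowest ratio of the 6, at 2.55 against 3.43 FPKM (interval -0.68 to -0.18). Cdh5, Kdr, Cldn5 and Emcn did not reach that mean and were not counted. Emcn was at 0.351 against 0.670 FPKM (interval -1.59 to -0.30), while the intervals of Kdr and Cldn5 included equality. Cdh5 was listed at 0 in deletion HSCs. Plvap, the most abundant, was at 12.2 FPKM in deletion HSCs against 11.1 FPKM in control HSCs. Monocyte and macrophage markers were mostly lower in deletion HSCs. Of 11 measured, 10 were below 0 and 4 at least 2-fold lower (Fn1, Csf1r, C1qa and F13a1), with a median of -0.91 and no gene of the list at 0. Fn1 (fibronectin) was at 0.615 FPKM in deletion HSCs against 6.57 FPKM in control HSCs. The sum of the list was 84.8 FPKM in deletion HSCs and 89.5 FPKM in control HSCs, of which Ly6c2 alone gave 60.8 against 30.4 FPKM. The part of these cells in the receptor values was not tested.

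The receptor tyrosine kinases showed small differences. Igf1r, the IGF-1 receptor, was at 7.15 FPKM in deletion HSCs against 8.81 FPKM in control HSCs (plain log2 ratio -0.30, interval -0.39 to -0.22), and Insr, the insulin receptor, at 3.52 against 4.11 FPKM (plain log2 ratio -0.22, interval -0.36 to -0.087). Fgfr1, an FGF receptor, was at 2.29 against 3.09 FPKM (plain log2 ratio -0.43, interval -0.62 to -0.24). Pdgfrb, a PDGF receptor known from pericytes and other stromal cells, was higher in deletion HSCs, at 3.26 FPKM (301 fragments) against 2.43 FPKM (231 fragments) in control HSCs (plain log2 ratio 0.43, interval 0.17 to 0.68).

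Other receptors of the same families were mostly near equality, and more of them lay below 0 than above. Of 20 measured, 1 was at least 2-fold lower and 15 were below 0, with a median log2 ratio of -0.088. Beside these stand 0.752% and 52.1% of protein-coding genes. Of the 30 counted receptors described above, 23 were below 0, with a median of -0.22. The one past 2-fold on the log2(FPKM + 1) scale was Csf1r, the M-CSF receptor counted above among macrophage markers. It was at 0.754 FPKM in deletion HSCs against 4.44 FPKM in control HSCs. The next lowest ratio on that scale was that of Axl, a receptor tyrosine kinase that binds Gas6, at 1.51 against 3.48 FPKM. The highest was that of Ifnar2, an interferon receptor chain, at 15.8 against 14.3 FPKM. Epor, the erythropoietin receptor, was the most abundant at 97.8 against 101 FPKM. Il18rap, the signalling partner of Il18r1 (named after its value was seen), was at 2.10 FPKM in deletion HSCs against 4.07 FPKM in control HSCs, with an interval of -1.18 to -0.73.

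Few ligands of the 40 receptors reached a mean of 1 FPKM. Of 42 in the table, 10 did so and 7 were listed at 0 in both libraries. The median log2 ratio of the 10 was 0.22. One was at least 2-fold higher, Ppbp, a platelet chemokine that gives rise to a CXCR2 ligand, at 5.32 FPKM in deletion HSCs against 0.903 FPKM in control HSCs. Platelet markers as a list were higher too, with 3 of 7 measured (Pf4, Ppbp and Treml1) at least 2-fold higher. Their list summed to 156 FPKM in deletion HSCs against 61.7 FPKM in control HSCs. Gp1bb was listed at 0 in deletion HSCs and had 1 fragment in control HSCs. Pf4, the most abundant platelet gene of the list, was at 94.7 FPKM in deletion HSCs against 29.9 FPKM in control HSCs. Of the other ligands that reached a mean of 1 FPKM, Il12a, a subunit of IL-12, had the highest ratio, at 4.75 against 2.50 FPKM. Il18 had the lowest ratio of them, at 1.84 against 3.18 FPKM. Tgfb1 was the most abundant at 64.9 against 66.4 FPKM.

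On the log2(FPKM + 1) scale, no measured gene of the 5 signalling lists passed 2-fold in either direction, and most had a ratio below 0. Id2, given below, was at -0.87 on that scale, while the interval of its plain log2 ratio was -1.57 to -0.79. No list median changed sign under the other scalings. Of 19 JAK, STAT and proximal signalling genes, 17 were below 0 with a median of -0.20. They ran from Stat3, which acts below gp130 and G-CSF receptors, at 7.96 FPKM in deletion HSCs against 11.2 FPKM in control HSCs, to Stat4, which acts below the IL-12 receptor, at 2.36 against 1.32 FPKM. Of 22 measured feedback inhibitors and targets of STAT, 13 were below 0 (median -0.086), from the kinase gene Pim2 at 2.59 against 4.04 FPKM to the phosphatase gene Ptpn2 at 16.8 against 12.0 FPKM. Of 17 IL-1 and IL-17 signalling genes, 12 were below 0 (median -0.089), from Irak3, an inhibitor of this pathway, at 4.04 against 5.995 FPKM to Tab2, an adaptor of the kinase TAK1, at 21.3 against 19.0 FPKM. Of 17 measured SMAD signalling genes and targets, 11 were below 0 (median -0.16), from the target gene Id2 at 1.92 against 4.34 FPKM to Smad2 at 13.6 against 11.2 FPKM. Of 16 measured insulin and IGF signalling genes, 14 were below 0 (median -0.12), from Pik3ca at 4.53 against 6.17 FPKM to Pik3cb at 5.83 against 5.12 FPKM, both catalytic subunits of PI3 kinase. The shares below 0 stand beside 52.1% of protein-coding genes.

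**Figure D5:**
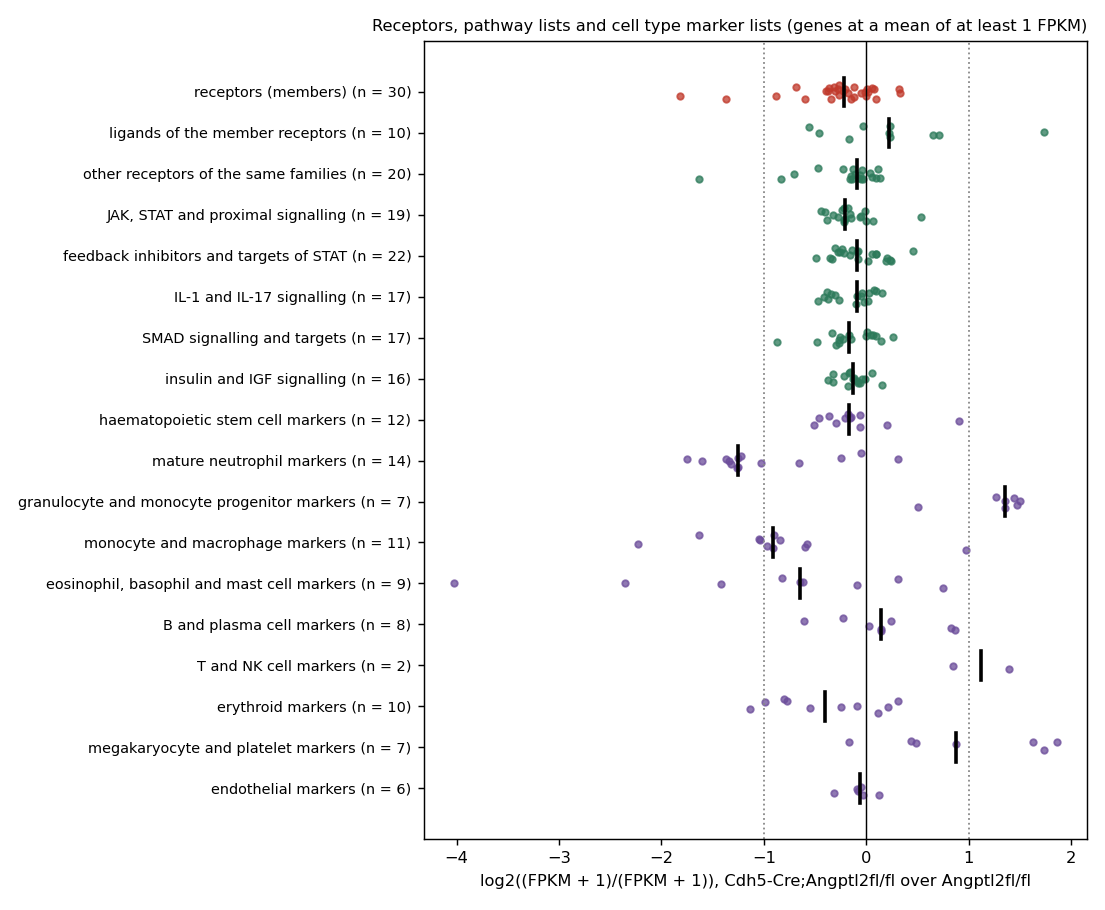
log2((FPKM + 1)/(FPKM + 1)), Cdh5-Cre;Angptl2fl/fl over Angptl2fl/fl, of genes that reached a mean of 1 FPKM in the receptor set (red), 7 pathway lists (green) and 10 marker lists (purple), with 1 point per gene, random vertical spread and the median as a black bar. The receptor median is -0.22, mature neutrophil markers lie mostly left of the 2-fold line and progenitor markers mostly right of it.

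On the log2(FPKM + 1) scale, the remaining marker lists gave context without passing 2-fold in most genes. Of 12 measured HSC markers, 10 were below 0 and none passed 2-fold, with a median of -0.17. Their sum was 158 FPKM in deletion HSCs against 168 FPKM in control HSCs. Both the counts and the sum include Cd48, which is absent from the surface of HSCs. Cd48 had the highest ratio of the list, at 16.3 FPKM in deletion HSCs against 8.23 FPKM in control HSCs. Of 10 erythroid markers 7 were below 0, with a median of -0.40, and 1 was at least 2-fold lower (Alas2, at 1.51 against 4.53 FPKM). Their sum was 2095 FPKM in deletion HSCs against 1843 FPKM in control HSCs, of which Car1 alone gave 1629 against 1315 FPKM. None of 8 measured B and plasma cell markers passed 2-fold, and their sum was 64.3 FPKM in deletion HSCs against 63.99 FPKM in control HSCs. Only 2 of 14 T and NK cell markers reached a mean of 1 FPKM, and 1 of them, Nkg7, was at least 2-fold higher. Nkg7 made up most of the list's 86.1 FPKM in deletion HSCs and 35.6 FPKM in control HSCs, at 78.0 against 29.1 FPKM. Cd3d, Cd3e, Cd3g and Cd8a were listed at 0 in deletion HSCs. In control HSCs they had only 2, 6, 7 and 11 fragments, in that order.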

How the data were processed

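Total RNA of bone marrow HSCs was sequenced in pairs of 150 bp (Illumina), per the labels. The authors deposited FPKM per Ensembl gene for 1 library per genotype, and samples were grouped by the genotype label. The submitters' processing notes name Bowtie 0.12.2 and the build mm8 without saying what each was used for. The program that counted fragments and its annotation are not given in sources used here. FPKM depends on each library's total and on the gene model, and paralogs can exchange fragments.

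Symbols came from a list of gene names (54408 of 54531 identifiers matched), and exon lengths and positions from GENCODE M21 on GRCm38 (54494 matched). FPKM times exon length fell within 0.02 of a whole multiple of 1 step per library for 95.8% of genes above 0 in deletion HSCs and 96.2% in control HSCs, which gave the depths and fragments used for intervals. Duplicate reads are not separate molecules, and any left among the fragments would make the intervals too narrow even for counting error. Python 3.11.15 with pandas 2.3.3 and scipy 1.17.1 was used, and the computation was tested on simulated data.

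No test across samples was possible. Calls are 2-fold on log2(FPKM + 1) for genes that reach a mean of 1 FPKM. The members, lists and naming rule were chosen with earlier results of these data known. The rule named all 40 receptors, the genes past 2-fold of every list, the highest and lowest of the rest of each pathway list and the most abundant of each marker list; other names were chosen after their values were seen. Sequences are from RefSeq. Alternatives were other pseudocounts (0.1 and 5), minimum levels, scalings and a 1.5-fold limit.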

Additional observations from a re-analysis of the deposited data

How the results depend on the processing

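The number of receptors at least 2-fold lower was 2 of 30 as reported, beside 3.38% of all genes. It was 4 with a pseudocount of 0.1 (Acvrl1 and Csf2rb2 added), beside 4.86% of all genes. It was 1 with a pseudocount of 5 (beside 0.957%) and 1 of 10 at a minimum mean of 5 FPKM (beside 1.27%), Il1r2 alone in both. With the FPKM of each library rescaled to the same sum, as TPM, it was 5 of 36 (Acvrl1, Csf2rb2 and Il12rb1 added), beside 7.87%. It was 5 with a 1.5-fold limit (Acvrl1, Csf2rb and Csf2rb2 added), beside 6.08%. The cause was not tested, beyond the fewer genes that a higher minimum leaves. Rescaling to the same sum also makes the pseudocount smaller relative to the values. Cxcr2 had a log2 ratio of -0.58 with the pseudocount of 5 and fell under the minimum mean of 5 FPKM, while Il1r2 was past 2-fold in every alternative run. No receptor was at least 2-fold higher in any of them, beside 0.600% to 5.74% of all genes in the settings with such a share. The number below 0 was 8 of 10 at a minimum mean of 5 FPKM and between 21 and 34, of 27 to 40, otherwise. The share of all genes below 0 moved with the scaling as well. With the same sum, 34 of 36 receptors were below 0, beside 68.02% of all genes. Without mitochondrial genes in the scaling, 22 of 32 were, beside 41.7%. With no minimum, 32 of 40 were, beside 57.98%, and the 8 of 10 stand beside 49.2%. The median log2 ratio of the receptors was -0.37 with the same sum, which moved the median of all genes by -0.15 to -0.16. Relative to the median of all genes the receptor median lay between -0.12 and -0.25 in every setting with such a median. Near equality, 8 receptors changed sign with scaling: Csf2ra, Il2rg and Il15ra turned above 0 without mitochondrial genes in the scaling, and Il1r1, Il1rl1, Acvr1b, Bmpr2 and Tgfbr3 turned below 0 with the same sum. A minimum of 200 fragments, chosen after seeing the data, left 2 lower and 21 of 27 below 0. No paired analysis was possible because each genotype has 1 library, and for the same reason no library could be left out. Depth limits Il5ra, Osmr, Lifr and Bmpr1a, with 50 fragments or fewer in both libraries together.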
